A study of Mus musculus with 8 samples.

Results

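The genes described here encode the serum response factor SRF, its actin-regulated partners and the proteins of the actin cytoskeleton that this pathway is known to control, measured in NIH3T3 cells given serum with or without cordycepin. They are 36 genes chosen by name, and all 36 are on the array, out of 35715 gene names in all. The members are the regulators Srf, Mkl1 and Mkl2, 4 actins, 2 proteins of actin turnover, 4 crosslinking or filamin-associated proteins, 10 proteins that bind along filaments, 5 myosin subunits and 8 proteins of adhesions. Of these, 35 were well above background on all 8 arrays and were tested. The remaining member, Fhl1, was well above background on none. The choice of genes used no measured value, but it was made with earlier results of these arrays known.

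NIH3T3 is an immortalised line of mouse embryonic fibroblasts. The cells were grown in 10% newborn bovine serum and kept in 0.5% serum for 24 h. The cordycepin plus serum group (3 arrays) received 20 µM cordycepin in DMSO for 90 min, with serum for the last 30 min. The serum group (3 arrays) received 0.1% DMSO and 30 min of serum, and the no serum group (2 arrays) was starved in the same way, with 0.1% DMSO by the protocol in the labels, and given no serum. This schedule is that of the labels, whereas the study's description of the experiment can be read as placing the serum after the cordycepin treatment. Cordycepin is 3′-deoxyadenosine, an analogue of adenosine without the 3′ hydroxyl that an RNA chain needs to be extended. No array held cordycepin without serum, so the drug was measured in serum-stimulated cells only. The labels do not say whether replicates came from separate cultures, and p-values measure the spread between these arrays, which may be in part technical.

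SRF binds a short element called the CArG box in the promoters of its target genes. One class of partners, the myocardin-related transcription factors MRTF-A (Mkl1) and MRTF-B (Mkl2), is held in the cytoplasm by monomeric actin. Serum drives actin into filaments, which frees the MRTFs to enter the nucleus and switch on genes for actin and its binding proteins. The other class, the ternary complex factors, answers to MAP kinase and drives immediate early genes such as Fos and Egr1.

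RefSeq promoter sequences of build GRCm38.p6 were available for 33 of the 36 members, as 42 windows of 250 bases upstream of a start site. They were searched for the CArG box, a 10-letter element with a pair of Cs, a run of A or T and a pair of Gs, which reads as a CArG box on both strands. Of the 33 members, 9 held at least 1 box (27.3%): Srf, Actg1, Filip1l, Cnn2, Myl6, Myl9, Vcl, Fhl1 and Fhl2. Of all 27025 genes in the table, 1.62% held one. By windows, 10 of the 42 of members and 482 of all 32851 (1.47%) did. The members were chosen by name as genes of this pathway, so these shares are a description and not a test of the list. The whole upstream window of Srf is shown because 2 boxes lie in it, 82 and 62 bases before the start (chr17:46556163-46556412, minus strand, boxes in capitals).
Srf: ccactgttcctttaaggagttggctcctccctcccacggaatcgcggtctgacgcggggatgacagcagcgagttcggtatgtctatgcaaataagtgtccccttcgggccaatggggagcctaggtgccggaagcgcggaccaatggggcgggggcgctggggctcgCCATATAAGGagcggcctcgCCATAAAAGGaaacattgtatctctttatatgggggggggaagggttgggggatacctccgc

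For each of 4 further members 1 box is shown in capitals, with up to 30 bases on each side. They were taken because Filip1l and Fhl2 changed with treatment and Actg1 and Vcl did not pass the test in any comparison. Fhl2 holds another box, 96 bases before its first start, which is not printed. The stretches are at chr16:57549150-57549219 (plus strand) for Filip1l, chr1:43163962-43164022 (minus strand) for the second start of Fhl2, chr11:120348546-120348615 (minus strand) for Actg1 and chr14:20929148-20929210 (plus strand) for Vcl.
Filip1l: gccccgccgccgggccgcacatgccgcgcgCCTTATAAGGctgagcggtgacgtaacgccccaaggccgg
Fhl2: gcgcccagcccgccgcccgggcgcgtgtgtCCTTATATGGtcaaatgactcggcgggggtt
Actg1: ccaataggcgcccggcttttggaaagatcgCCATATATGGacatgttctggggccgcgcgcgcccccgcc
Vcl: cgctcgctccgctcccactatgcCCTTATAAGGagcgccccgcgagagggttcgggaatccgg
The same 10 letters stand before Filip1l, 62 bases from its second start, and before Vcl, 227 bases from its start. The letters describe the windows and do not show that SRF binds there.

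**Figure D1:**
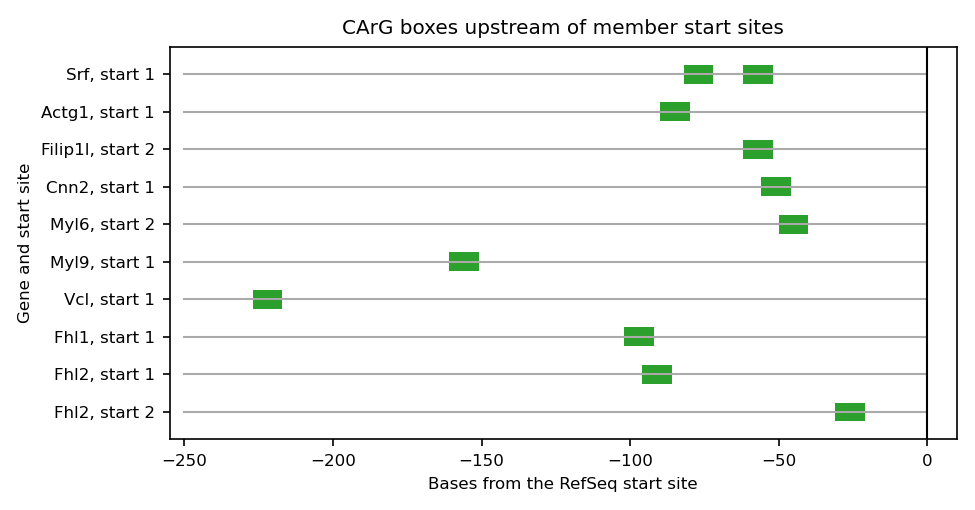
Position of CArG boxes (green bars, to scale) upstream of RefSeq start sites of the 9 members that hold one. The x axis is the distance in bases from the start site, each grey line is 1 window of 250 bases, and genes with several starts are numbered. Srf has boxes at 82 and 62 bases, and the boxes of Myl9 (161 bases) and Vcl (227 bases) lie farthest from the start.

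Levels are given as normalised log2 signal, the log2 of the background-corrected intensity less that array's 75th percentile, in which 1 unit is a 2-fold difference. A gene is represented by its brightest probe. The probes of the members were bright: 34 of the 35 tested lay above the median probe tested and 30 lay above the 75th percentile of probes tested. Probes differ in how they bind, so levels are compared between arrays and not between genes. Differences between groups were tested with limma over 30857 probes, and a member was said to rise or fall at an adjusted p under 0.05. The arrays were alike, with 51.1% to 57.1% of probes above background and correlations within a group of 0.992 to 0.995. In bulk RNA of this kind, fewer cells of a type and less RNA per cell cannot be told apart.

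The cells carried fibroblast RNA throughout. All 6 fibroblast markers examined, Col1a1, Col1a2, Fn1, Vim, Pdgfrb and S100a4, were above background on all 8 arrays. Of the markers of other cells, Myh11 (smooth muscle), Actc1 and Myog (striated muscle), Krt18 and Cdh1 (epithelium) and Cdh5 (endothelium) were above background on no array, whereas Acta1, Smtn, Kdr, Pecam1 and Cd68 were on all. Krt8 (epithelium) and Des (smooth muscle) were on 7 arrays, Ptprc (blood) on 3, and Epcam (epithelium) and Myod1 (striated muscle) on 1 each. The summed linear level of the 2 blood markers, Cd68 and Ptprc, was 7.46 to 9.87 on cordycepin plus serum arrays against 0.909 to 1.35 on serum arrays and 0.925 to 1.39 on no serum arrays. Ptprc was not tested and had group means from -5.49 to -5.36, so the sum follows Cd68. Cd68 (a lysosomal protein of macrophages) was 3.02 log2 units higher with cordycepin (limma adjusted p = 4.79e-05). The striated muscle actin Acta1 rose with serum by 1.00 ± 0.15 (limma adjusted p = 0.0163), and the summed level of the 4 striated muscle markers was 4.60 to 4.71 without serum, 8.15 to 11.0 with serum and 6.31 to 7.50 with cordycepin and serum. Actc1, Myod1 and Myog had group means of -5.81 or lower, so the striated muscle sum follows Acta1. Pecam1, an endothelial adhesion protein, was -0.48 ± 0.14 with cordycepin and serum against no serum (limma adjusted p = 0.0496). The part of these RNAs in the results below was not tested.

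The first question was which members serum induced within 30 min. Serum raised 4 of 35 members (11.4%), each by more than 2-fold: Srf itself, the smooth muscle gamma actin Actg2, the filamin-interacting protein Filip1l and the fibronectin receptor subunit Itga5. No member fell. Across all probes, 1.17% were higher and 1.16% lower with serum by the same rule, and across the 13420 RefSeq mRNA genes on their brightest probes 1.24% were higher and 0.127% lower. The median member differed by 0.22 log2 units and 30 of 35 had a positive difference, against a median of -0.013 over all probes. Centring on spike-in probes moved the median of all probes to -0.30 and that of the members to -0.074, and under it no member passed. Srf was the only member still called without serum replicate 1, no serum replicate 1 or no serum replicate 2. With the mean of all tested probes of a gene, Tpm1 was also called higher with serum.

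The second question was what cordycepin did to these genes in the presence of serum. Cordycepin lowered 7 of 35 members (20%) and raised none. The 7 were the regulators Srf and Mkl1, Filip1l, the tropomyosin gene Tpm1, and the adhesion genes Zyx, Itga5 and Fhl2. Filip1l and Itga5 fell by more than 2-fold. Across all probes, 7.71% were lower and 11.7% higher with cordycepin, and across RefSeq mRNA genes 8.13% were lower and 6.29% higher. The members were bright, and among the 5003 RefSeq mRNA genes above the 75th percentile of probes tested, a group defined after the members' levels were seen, 6.16% were lower and 1.56% higher. The median member differed by -0.14, against 0.085 over all probes. With spike-in centring Filip1l and Itga5 alone were called, and 1.6% of all probes were lower. Spike-in centring subtracts 1 value per array, so it moves the cordycepin difference of every probe by the same amount. The median of all probes was then 0.0084. Srf was -0.73, Mkl1 -0.45, Tpm1 -0.54, Zyx -0.75 and Fhl2 -0.84, which reflects that common shift and is not separate evidence for each gene. With slide row as a block (6.44% of all probes lower), with no filter on dim probes (2.62%), or without cordycepin plus serum replicate 3, serum replicate 1 or serum replicate 2, the 4 members called were Srf, Filip1l, Zyx and Itga5.

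The third comparison set cordycepin plus serum against no serum, to see where the drug left each gene relative to starved cells. On their brightest probes, Srf and Actg2 remained higher than in starved cells and Mkl1 and Filip1l were lower, which is 2 of 35 in each direction (5.71%). For Srf this depends on the probe: the second Srf probe gave -0.75 ± 0.25, which did not pass. With the mean of all tested probes the Srf call was lost. Across all probes 9.07% were higher and 6.15% lower, and across RefSeq mRNA genes 5.41% were higher and 5.57% lower, so the share of members called was near or below the background. Without any 1 array the lower count was 1, Filip1l, and the higher count was 0 to 2, with 0 without no serum replicate 2 and 1 without cordycepin plus serum replicate 1 or 2 or no serum replicate 1. The serum arrays enter both the serum and the cordycepin difference with opposite sign, so the 2 differences of a gene are given side by side and not related to each other.

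**Figure D2:**
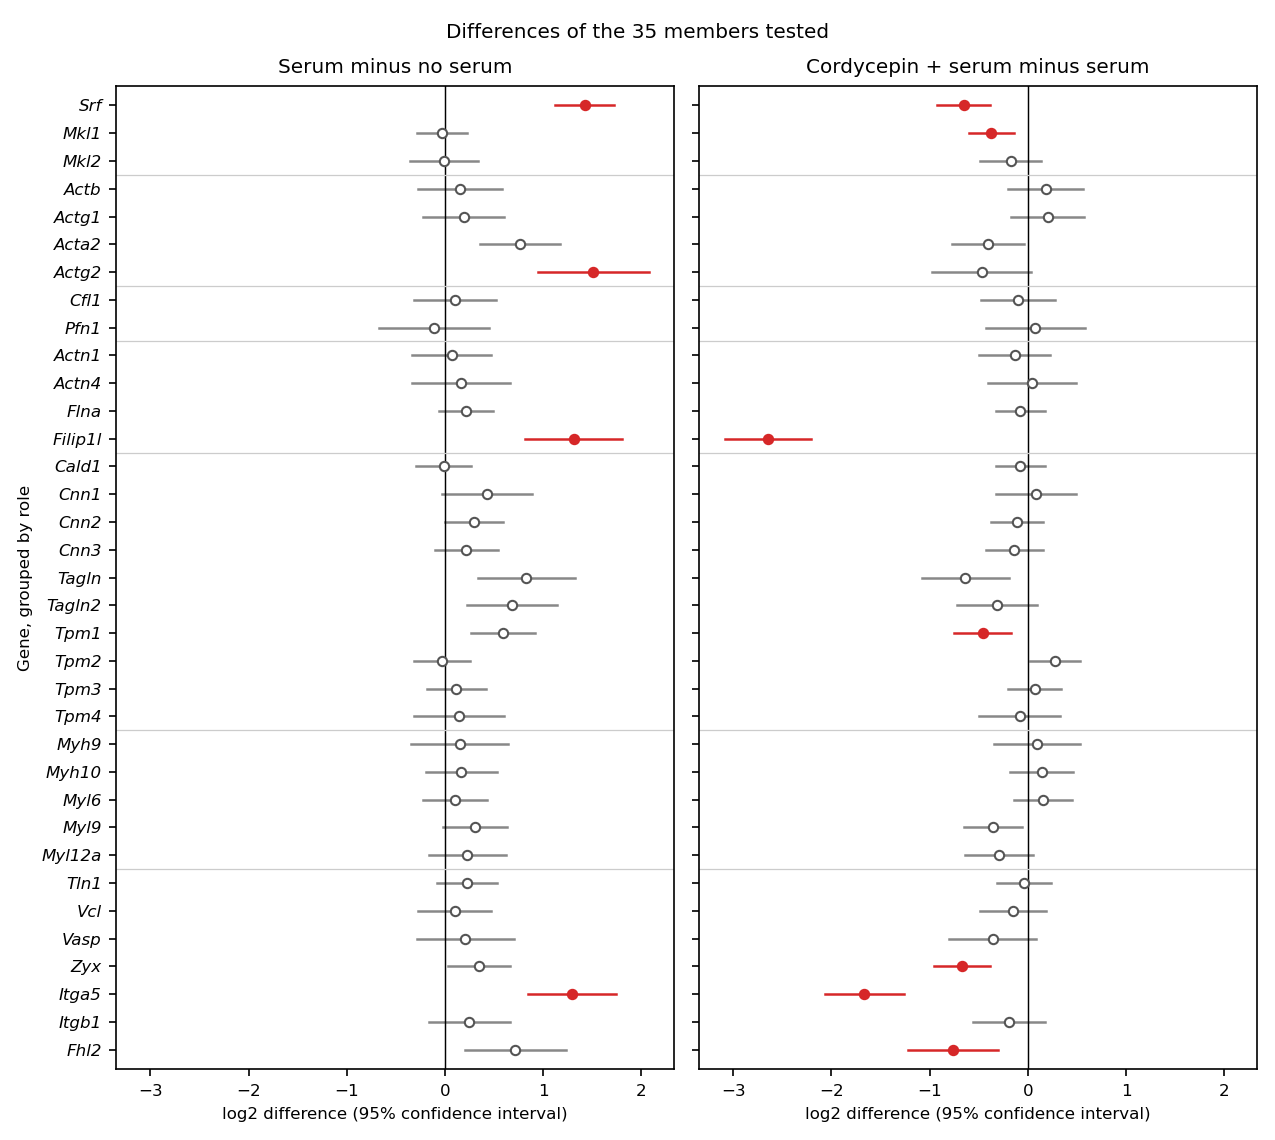
Difference of each of the 35 members tested, as log2 difference with its 95% confidence interval, for serum minus no serum (left) and cordycepin plus serum minus serum (right). Filled red points passed an adjusted p under 0.05 (limma), open points did not, and grey lines separate roles in the order regulators, actins, actin turnover, crosslinkers, filament-binding proteins, myosin and adhesion. Red points lie to the right for Srf, Actg2, Filip1l and Itga5 on the left panel, and to the left for 7 members on the right panel.

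Among the regulators, Srf encodes the DNA-binding factor at the centre of the pathway. Its brightest probe (mm9 chr17:46683945-46684003) read 4.36 and 4.25 on the no serum arrays, 5.69, 5.81 and 5.68 on the serum arrays, and 5.25, 5.01 and 4.96 on the cordycepin plus serum arrays. The 3 groups did not overlap, with the cordycepin arrays between the others. Serum raised Srf by 1.42 ± 0.13 (SE), or 2.68-fold (limma adjusted p = 0.00154). Cordycepin lowered it by 1.57-fold, a log2 difference of -0.65 ± 0.12 (limma adjusted p = 0.00525), and left it 0.77 ± 0.13 above starved cells (limma adjusted p = 0.0054). Without no serum replicate 2 the last call was lost.

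Srf was also measured by a second probe. It begins at base 2515 of the Srf transcript, while the brightest begins at base 3877. It read 2.51 and 2.58 without serum, 3.94, 4.75 and 4.03 with serum, and 1.77, 1.57 and 2.03 with cordycepin and serum. On this probe the cordycepin arrays were the lowest of all 8. The serum difference was 1.69 ± 0.25 (limma adjusted p = 0.0139 for this probe) and the cordycepin difference -2.45 ± 0.22 (limma adjusted p = 0.000152), while the difference from starved cells, -0.75 ± 0.25, did not pass. The cordycepin differences of the 2 Srf probes differed by -1.79, with an exact two-sided permutation p of 0.1, the smallest that 3 arrays against 3 allow. Over 24 probe pairs of 16 members, 9 pairs reached that smallest p with cordycepin, and the smallest adjusted p was 0.267. No pair could reach an adjusted p under 0.05 with these arrays, so the permutation test cannot decide whether probes differ. The limma confidence intervals of the cordycepin difference did not overlap: -2.96 to -1.93 at base 2515 and -0.93 to -0.38 at base 3877. Both probes were read on the same arrays, and this pair had the largest gap of the 24. The intervals are therefore a description and not a test of the gap.

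Mkl1 encodes MRTF-A. It read 4.05 and 4.21 without serum, 4.11, 4.09 and 4.09 with serum, and 3.74, 3.77 and 3.67 with cordycepin and serum (mm9 chr15:80842711-80842770). The cordycepin arrays lay below all others, and the serum arrays lay within the range of the no serum arrays. Cordycepin lowered Mkl1 by 1.29-fold, a log2 difference of -0.37 ± 0.10 (limma adjusted p = 0.0343), and the difference from starved cells was -0.40 ± 0.11 (limma adjusted p = 0.0468). A second Mkl1 probe gave -0.42 ± 0.11 for the drug (limma adjusted p = 0.0279) and -0.55 ± 0.12 against starved cells (limma adjusted p = 0.0162). Both calls on the brightest probe are close to the threshold: that against serum was lost without any 1 of the 6 cordycepin or serum arrays, and that against no serum without any 1 of the 8 arrays.

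Mkl2 encodes MRTF-B. It read 3.22 and 3.45 without serum, 3.39, 3.37 and 3.22 with serum, and 3.37, 2.98 and 3.11 with cordycepin and serum. The groups overlapped in both the serum and the cordycepin comparison. The cordycepin difference of Mkl2 was -0.18 ± 0.14, and no comparison passed.

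**Figure D3:**
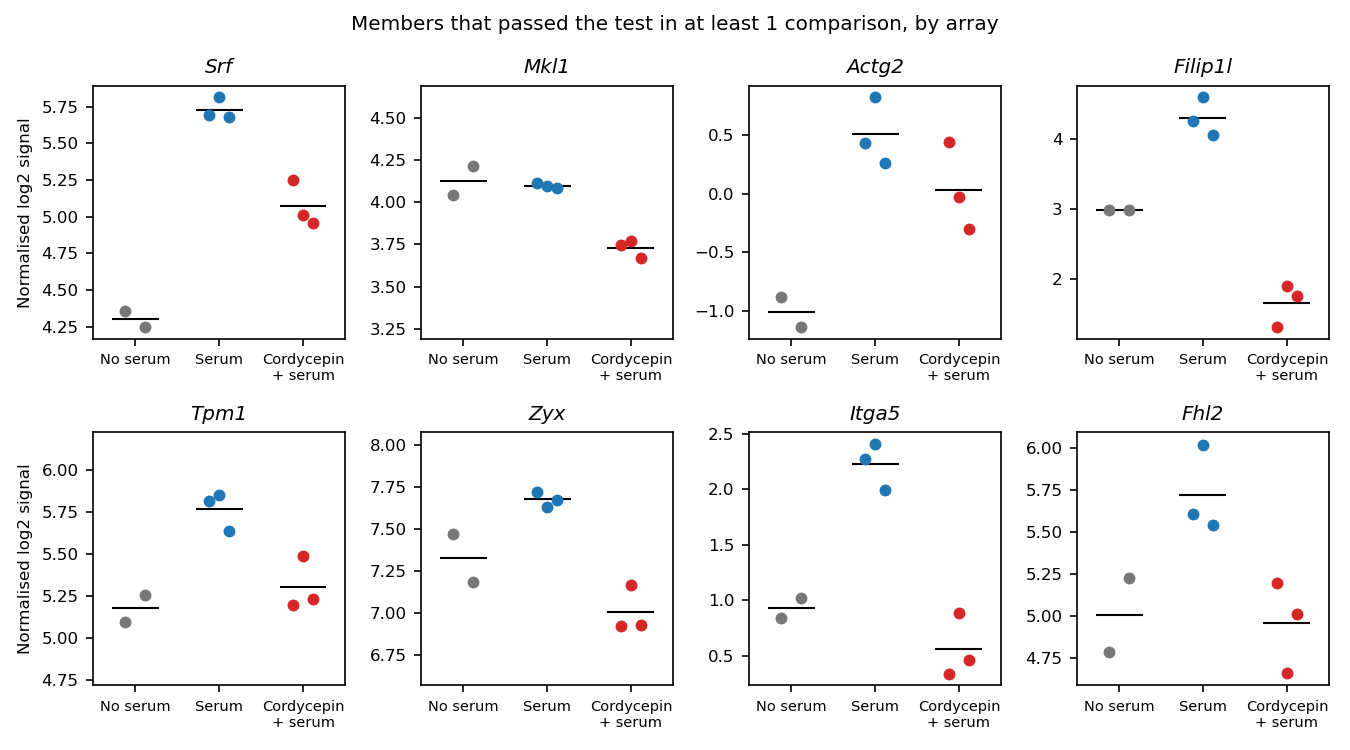
Normalised log2 signal of the 8 members that passed the test in at least 1 comparison, by group. Each point is 1 array and each line the group mean, and the y axis of each panel has its own range. Filip1l and Itga5 are lowest on cordycepin plus serum arrays except for 1 Itga5 array within the no serum range. On the brightest Srf probe, shown here, the arrays with cordycepin lie between the other groups.

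The actins form the filaments themselves. Actg2 encodes the gamma actin of smooth muscle. It read -0.88 and -1.14 without serum, 0.43, 0.82 and 0.26 with serum, and 0.44, -0.03 and -0.30 with cordycepin and serum (mm9 chr6:83462904-83462963). Both no serum arrays lay below all others, and the cordycepin and serum arrays overlapped. Serum raised Actg2 by 2.85-fold, a log2 difference of 1.51 ± 0.24 (limma adjusted p = 0.0194). The cordycepin difference of Actg2 was -0.47 ± 0.22 and did not pass (limma adjusted p = 0.188), and Actg2 stayed 1.04 ± 0.24 above starved cells (limma adjusted p = 0.023). The serum call was lost without serum replicate 1 or either no serum array, and the call against starved cells without cordycepin plus serum replicate 1 or 2 or either no serum array.

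The other 3 actins did not pass in any comparison. For Acta2, the alpha actin of smooth muscle and of activated fibroblasts, the serum difference was 0.76 ± 0.18 (limma adjusted p = 0.083) and the cordycepin difference -0.40 ± 0.16 (limma adjusted p = 0.126). Acta2 is named here after its values were seen. It was called lower with cordycepin in some alternative settings, among them quantile normalisation. For the cytoplasmic beta actin Actb the differences were 0.16 ± 0.18 with serum and 0.18 ± 0.17 with cordycepin.

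The cytoplasmic gamma actin Actg1 was measured by 5 probes, of which those that begin at bases 624, 662 and 672 of the transcript and those at 1723 and 1841 gave different sizes. With serum the first 3 gave 0.55, 0.74 and 0.68, and the last 2 gave 0.19 and 0.16 log2 units. With cordycepin the first 3 gave -0.16, -0.29 and -0.28, and the last 2 gave 0.20 and 0.18. None passed. The positions in the files place 4 of the 5 probes on other chromosomes than the gene, so signal from near-identical copies cannot be told from that of Actg1.

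**Figure D4:**
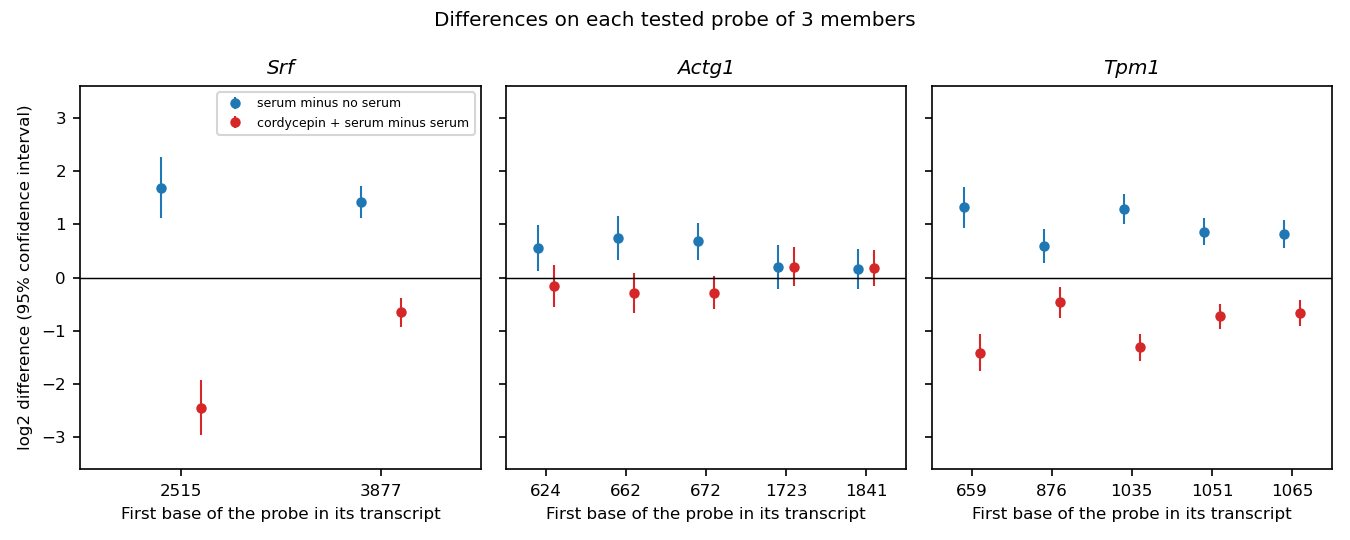
Serum and cordycepin differences (log2, with 95% confidence intervals) on each tested probe of Srf, Actg1 and Tpm1, ordered by the first base of the probe in the transcript that the files name for it. Probes of Tpm1 name different transcript variants, so their positions are not on 1 scale. Cordycepin differences are larger in size on the Srf probe at 2515 (-2.45) than on the one at 3877 (-0.65), and are negative on all 5 Tpm1 probes.

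Of the crosslinking group, Filip1l showed the largest cordycepin difference of the 35 members tested. It encodes a protein that interacts with filamin A. It read 2.98 and 2.99 without serum, 4.25, 4.59 and 4.05 with serum, and 1.31, 1.90 and 1.76 with cordycepin and serum (mm9 chr16:57572654-57572713). The groups did not overlap, and the cordycepin arrays were the lowest. Serum raised Filip1l by 2.49-fold, a log2 difference of 1.31 ± 0.21 (limma adjusted p = 0.0203). Cordycepin lowered it by 6.26-fold, a log2 difference of -2.65 ± 0.19 (limma adjusted p = 5.37e-05). Filip1l was then below starved cells, with a difference of -1.33 ± 0.21 (limma adjusted p = 0.00403). The cordycepin call on Filip1l was kept in all 20 alternative settings, with values from -2.77 to -2.47, while the serum call was lost without serum replicate 1 or either no serum array. The alpha-actinins Actn1 and Actn4 and filamin A (Flna), which hold filaments in bundles and networks, did not pass, with cordycepin differences of -0.13, 0.04 and -0.08.

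Tropomyosins lie along the filament and stabilise it. The brightest Tpm1 probe read 5.09 and 5.26 without serum, 5.81, 5.85 and 5.63 with serum, and 5.20, 5.49 and 5.23 with cordycepin and serum (mm9 chr9:66871166-66871225). The serum arrays lay above all others, and the cordycepin and no serum arrays overlapped. Cordycepin lowered Tpm1 by 1.38-fold, a log2 difference of -0.46 ± 0.13 (limma adjusted p = 0.0369), and the serum difference of 0.59 ± 0.14 did not pass (limma adjusted p = 0.092). The other 4 Tpm1 probes, which name other transcript variants, all passed in both comparisons, with serum differences of 0.82 to 1.32 and cordycepin differences from -0.66 to -1.41. None of the 5 differed from starved cells at an adjusted p under 0.05 after cordycepin, with differences from -0.09 to 0.15. The cordycepin call on the brightest probe was lost on leaving out cordycepin plus serum replicate 1 or 3, or any 1 serum or no serum array.

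Tpm3 also differed between probes. The probe that begins at base 664 fell with cordycepin by 0.43 on the log2 scale (-0.43 ± 0.10, limma adjusted p = 0.0198), whereas the brightest Tpm3 probe gave 0.07 ± 0.12. The dimmer probe read -0.59 and -0.51 without serum, -0.02, -0.08 and 0.06 with serum, and -0.41, -0.55 and -0.40 with cordycepin and serum.

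Among the other filament-binding proteins, Tagln (SM22, a calponin-related protein of smooth muscle and fibroblasts) was just outside the threshold. Its cordycepin difference was -0.64 ± 0.19 (limma adjusted p = 0.0523), with no overlap of the arrays, and its serum difference was 0.83 ± 0.21 (limma adjusted p = 0.118). Tagln is named after its values were seen. It was called lower with cordycepin in some alternative settings, among them quantile normalisation and the replicate block. Caldesmon (Cald1), the calponins Cnn1, Cnn2 and Cnn3, Tagln2, Tpm2 and Tpm4 did not pass in any comparison, with cordycepin differences from -0.31 for Tagln2 to 0.28 for Tpm2.

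Adhesion genes tie filaments to the membrane and matrix, and 3 of the 7 tested fell with cordycepin, against 7.71% of all probes. Itga5 encodes the alpha subunit of the fibronectin receptor. It read 0.84 and 1.02 without serum, 2.28, 2.41 and 1.99 with serum, and 0.34, 0.88 and 0.47 with cordycepin and serum (mm9 chr15:103175022-103175081). The serum arrays lay above all others, while 1 cordycepin array lay within the no serum range. Serum raised Itga5 by 2.46-fold, a log2 difference of 1.30 ± 0.20 (limma adjusted p = 0.0149). Cordycepin lowered it by 3.17-fold, a log2 difference of -1.66 ± 0.17 (limma adjusted p = 0.000314), in every alternative setting tried, and the difference of Itga5 from starved cells, -0.37 ± 0.20, did not pass (limma adjusted p = 0.274). The serum call was lost without serum replicate 1 or either no serum array. Its partner Itgb1 gave 0.25 ± 0.18 with serum and -0.19 ± 0.16 with cordycepin.

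Zyx encodes zyxin, a protein of adhesions and stress fibres. It read 7.47 and 7.19 without serum, 7.72, 7.63 and 7.68 with serum, and 6.93, 7.17 and 6.93 with cordycepin and serum (mm9 chr6:42308334-42308393). The 3 groups did not overlap, and the cordycepin arrays were the lowest. Cordycepin lowered Zyx by 1.59-fold, a log2 difference of -0.67 ± 0.12 (limma adjusted p = 0.00596). The serum difference of 0.35 ± 0.14 and the difference from starved cells of -0.32 ± 0.14 did not pass.

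Fhl2 encodes a LIM-domain protein that binds integrins and SRF. It read 4.79 and 5.22 without serum, 5.61, 6.02 and 5.54 with serum, and 5.20, 4.66 and 5.01 with cordycepin and serum (mm9 chr1:43179994-43180053). The serum arrays lay above all others and the remaining groups overlapped. Cordycepin lowered Fhl2 by 1.70-fold, a log2 difference of -0.76 ± 0.20 (limma adjusted p = 0.0297), and the serum difference of 0.72 ± 0.22 did not pass (limma adjusted p = 0.22). The cordycepin call was lost without cordycepin plus serum replicate 2 or 3 or serum replicate 1 or 2. Talin (Tln1), vinculin (Vcl) and Vasp, which link integrins to actin and extend filaments, did not pass, with cordycepin differences of -0.04, -0.15 and -0.36.

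No member of the actin turnover or myosin groups passed in any comparison. Cofilin (Cfl1) severs filaments and profilin (Pfn1) loads monomers, and their cordycepin differences were -0.10 and 0.08. The heavy chains of non-muscle myosin, Myh9 and Myh10, gave 0.09 and 0.14, and the light chains Myl6, Myl9 and Myl12a gave 0.15, -0.35 and -0.29. The Pfn1 probe is placed on another chromosome than the gene by the files, so its value is uncertain where near-identical copies exist. The brightest probes of Cfl1 and Myl6, whose values are given, are placed on the gene's own chromosome, but a dimmer probe of each is placed on another.

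In all, 27 of the 35 members tested passed in no comparison on their brightest probes. Their cordycepin differences ran from -0.64 to 0.28 and their serum differences from -0.11 to 0.83. The median half-width of their 95% confidence intervals was 0.36 for cordycepin and 0.40 for serum. For 26 of the 27 the interval of the cordycepin difference, and for 24 that of the serum difference, lay within a 2-fold change in either direction.

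Among members with promoter windows and a test, 8 held a CArG box, of which 2 rose with serum (Srf and Filip1l) and 3 fell with cordycepin (Srf, Filip1l and Fhl2). Of the 24 without one in the window, 1 rose with serum (Itga5) and 4 fell with cordycepin (Mkl1, Tpm1, Zyx and Itga5). Of all probes, 1.17% rose with serum and 7.71% fell with cordycepin. The counts rest on few genes and on 1 probe per gene, and the other 4 Tpm1 probes passed with serum. Whether a box goes with a change was not tested. The table holds no window for Actb, Actg2 and Tagln. A window without the letters says nothing of elements elsewhere in the gene.

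Further genes of the pathway were read from other lists. None of the 9 subunits of the Arp2/3 complex, which branches filaments, passed in any comparison, and their median cordycepin difference was 0.11. The files place the probes of Actr3 and Arpc1b on other chromosomes than the gene and give no place for that of Arpc1a, so these values are uncertain.

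A list of genes that SRF controls with ternary complex factors was read beside the members. All 9 tested fell with cordycepin, against 7.71% of all probes. With serum 8 of 9 rose, the exception being Mcl1, against 1.17% of all probes. After cordycepin 6 remained above starved cells, against 9.07% of all probes. The median differences of the 9 were 2.63 with serum and -1.47 with cordycepin, against 0.22 and -0.14 for the members. Fosb, an AP-1 subunit, gave the largest serum difference of the list, 7.91 ± 0.18, and Egr3, a zinc finger factor, the largest cordycepin difference, -2.62 ± 0.25. The difference between these lists was not tested. The study itself names Fos, Fosb, Junb, Egr1 and Egr2 as serum response genes that cordycepin repressed in this experiment. The list was thus not chosen blind to its outcome, and its counts are a description only. The genes Elk1, Elk3 and Elk4, which encode the ternary complex factors themselves, did not pass in any comparison, and the files place the Elk1 probe on another chromosome than the gene, so its value is uncertain.

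A further list held other cytoskeletal genes known as MRTF targets, of which 20 of 22 were tested. With cordycepin 3 of the 20 fell and 1 rose, against 7.71% and 11.7% of all probes. With serum 1 of the 20 rose, against 1.17% of all probes. Lima1, which encodes the filament-bundling protein EPLIN, rose with serum by 0.75 ± 0.15 (limma adjusted p = 0.0474) and fell with cordycepin, with a log2 difference of -0.95 ± 0.13 (limma adjusted p = 0.00153). Pdlim7, a PDZ and LIM protein, and Tgfb1i1, the adhesion protein Hic-5, also fell, with differences of -0.82 ± 0.12 and -0.64 ± 0.16. Neither passed with serum, and both were below starved cells after cordycepin, by limma at adjusted p = 0.037 and 0.041. The integrin subunit Itga7 rose with cordycepin by 0.74 ± 0.15. The medians of this list were 0.19 with serum and -0.11 with cordycepin, near those of the members. The probe of Csrp1 is placed on another chromosome than the gene, and those of Lasp1 and Itga1 on none.

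Among the RefSeq mRNA genes whose levels most resembled those of the brightest Srf probe over the 8 arrays were Dnajb1 (r = 0.990), Lzts2 (r = 0.990), Arc (r = 0.989) and Prkab2 (r = 0.987). None is a member. The 8 arrays fall into the 3 groups, so each r mostly repeats the order of the group means. For Arc, a neuronal immediate early gene, the means were 1.75 without serum, 5.99 with serum and 3.79 with cordycepin and serum. For Dnajb1, an HSP40 co-chaperone, they were 5.33, 6.90 and 6.01.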

How the data were processed

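The deposited files give a linear intensity for each spot of 8 one-colour Agilent arrays. The authors used Feature Extraction 10.7.3.1 (per the file headers), which removes background and a spatial trend, with probe positions on build mm9. One slide held the 8 arrays, with 1 scan time. The 75th percentile of the processed intensity ran from 302.2 to 692 between arrays, no spot was saturated, and the number of arrays limits the precision.

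The log2 of the processed signal was averaged over the spots of a probe, without outlier spots, and the 75th percentile of each array over non-control probes was subtracted, which hides any shift common to most RNAs. Testing was limited to probes that all arrays of some group showed well above background (30857 of 55681). Groups came from the labels and were compared in limma 3.58.1 (R 4.3.3), the tool named in the study's methods, fitting group means to all 8 arrays without covariates. Two-sided p-values received Benjamini-Hochberg adjustment across all probes. A gene was represented by its brightest probe, and error is the SE of the fit. Probes of a gene were compared with exact permutation tests over arrays.

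The members, gene lists and tests were chosen with earlier results of these data known. Values on every array are given for Srf, Mkl1, Mkl2 and each member with an adjusted p under 0.05 in any comparison, and at most 3 genes per further list and comparison are named, by the largest difference. Replicate numbers were checked for pairing: deviations from the group means correlated from -0.17 to 0.23 between arrays of the same number (7 pairs) and from -0.32 to 0.32 between others (14 pairs), so the numbers were not taken to pair arrays. Promoter sequences are RefSeq's, matched by symbol (Mkl1 and Mkl2 through their current names). The calculation was tested on simulated data. Alternatives were other background corrections, normalisations, filters, thresholds, blocks, probe summaries and leaving out each array. One further gene list and 1 single gene are not reported here.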

Additional observations from a re-analysis of the deposited data

How the results depend on the processing

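The number of members higher with cordycepin or lower with serum was 0 in all 20 alternatives. The 7 members lower with cordycepin became 2 with spike-in centring, with a minimum of 2-fold and with the threshold of the study's legend (unadjusted), and 4 with no filter on dim probes or with the slide row as a block. The count was 9 with another background correction (normexp) or with quantile normalisation, where Acta2 and Tagln were also called. It was 8, with Tagln added, for probes well above background on all 8 arrays. Of all probes, 7.71% were lower in the main setting. That share was 1.6% with spike-in centring, 2.99% at 2-fold, 3.21% at the legend's threshold, 2.62% with no filter and 6.44% with the slide row. It was 5.89% with normexp, 11.3% with quantile normalisation and 8.22% with the filter on all 8 arrays. The 4 members higher with serum became 0 with spike-in centring and 1 with no filter, and the highest count in any alternative was 5. Tpm1 was called with serum on the mean of all tested probes. Against no serum, the 2 higher became 0 with spike-in centring and 1 with no filter, 2-fold, the legend's threshold or the mean of all probes, and the 2 lower became 1 with spike-in centring, no filter, 2-fold, the legend's threshold, the replicate block, the slide row or only the arrays compared. Leaving out 1 array gave 4 to 6 members lower with cordycepin, 1 to 4 higher with serum, and 0 to 2 higher and 1 lower against no serum, with medians of -0.26 to -0.11, 0.15 to 0.31 and 0.047 to 0.21. The median member moved under quantile normalisation to -0.22 (cordycepin) and -0.019 (against no serum), and under spike-in centring to -0.21, -0.074 (serum) and -0.24. Signs turned for members that had not passed: Mkl2 with serum was 0.030 under the replicate block and -0.12 to 0.11 on leaving out 1 array (0.045 without serum replicate 3), and Mkl1 with serum was -0.12 to 0.052. Against no serum, Tpm1 was -0.24 with spike-in centring, and Fhl2 was -0.27 to 0.17 on leaving out 1 array (0.099 without cordycepin plus serum replicate 2, highest without no serum replicate 2). The causes of these changes were not tested. The replicate block changed no other count of members by over 1.5 times, but with it the cordycepin calls of Mkl1 (adjusted p = 0.0798) and Fhl2 (0.0653) were lost and Tagln was called. The slide row as a block lost those of Mkl1 (0.0738), Tpm1 (0.0685) and Fhl2 (0.0583), all by limma. The number of arrays limits what could be detected, with Fhl1 not well above background.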
